A study of Mus musculus with 162 samples.

Results

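The genes described are 6 CC chemokines that recruit eosinophils and T helper type 2 (Th2) cells, Ccl11, Ccl24, Ccl17, Ccl22, Ccl8 and Ccl1, and their receptors Ccr3, Ccr4 and Ccr8. The 9 were taken by name from 46078 Ensembl genes with read counts, after the identifiers had been matched to mouse symbols, and all 9 were present. RNA-seq had been done on cheek skin of adult male C57BL/6 mice painted each day with 20 µL of 0.2 mM MC903 (calcipotriol, a vitamin D analog that induces atopic dermatitis-like inflammation) or with the ethanol vehicle alone. All groups, controls included, thus received ethanol on the skin. Of 162 libraries, 70 were from skin and 61 of these were used, 31 with MC903 and 30 with ethanol.

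Wild-type mice without an injection were sampled on day 1, 6 hours after the first treatment (4 MC903 and 4 ethanol libraries), on day 2 (3 and 2), on day 5 (3 and 3) and on day 8 (5 and 6). The day 8 libraries carried titles of 2 styles, called here cohort A (3 and 3) and cohort B (2 and 3), and cohort was a term of every fit that used them. Further wild-type mice were injected and sampled on day 8. They received either PBS (2 and 3) or aGr1, 250 µg of an antibody to Gr1 given to deplete neutrophils (4 and 4). TSLPR KO mice, which lack the receptor of the epithelial cytokine TSLP encoded by Crlf2, were sampled on day 8 (3 and 2) and day 12 (4 and 3). BLT1 KO mice, which lack the leukotriene B4 receptor encoded by Ltb4r1, were sampled on day 8 (3 and 3). Wild-type day 12 libraries were left out because 6 of the 9 labelled as skin had more of the sensory neuron gene Scn10a than of the keratinocyte gene Krt14, which was so in 0 of the 61 libraries used.

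Each library held 17431296 to 67342879 reads counted in genes, with a median of 28927563. Crlf2 ranged from 0.0590 to 1.54 cpm (read counts scaled to the library total with TMM factors over the 61 libraries) in the 12 TSLPR KO libraries and from 2.07 to 14.9 in the other 49. Ltb4r1 ranged from 2.29 to 15.6 cpm in the 6 libraries labelled BLT1 KO and from 2.29 to 78.2 in the other 55, so that the ranges overlapped, and the deleted part of the gene was not given in the sources used here. On day 8 the libraries labelled BLT1 KO lay below uninjected wild-type libraries in both arms, at 2.29 to 3.62 against 6.59 to 9.66 cpm with ethanol and at 10.1 to 15.6 against 31.7 to 78.2 cpm with MC903. Injected wild-type libraries lay nearer. With ethanol they had 3.40 to 6.16 cpm after aGr1, which overlapped the BLT1 KO label, and 4.48 to 7.52 after PBS. With MC903 they had 16.9 to 25.4 cpm after aGr1 and 20.5 to 22.6 after PBS. Libraries that stood apart were aGr1 ethanol replicates 1 and 2, with 369 and 186 cpm summed over 4 B cell genes where all but 4 libraries had at most 17.8, and wild-type day 2 MC903 replicate 3, with 1595 cpm summed over sensory neuron genes where the next had 77.7. No label stated whether replicates came from separate animals, so the p-values measure the spread between these libraries.

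Chemokines are small secreted proteins that guide leukocytes along a gradient through G protein-coupled receptors. CCL11 and CCL24, the eotaxins, act on CCR3, the main chemokine receptor of eosinophils. CCL17 and CCL22 act on CCR4, carried by Th2 cells, regulatory T cells and skin-homing T cells, and CCL1 and mouse CCL8 act on CCR8, carried by Th2 and regulatory T cells. Raised CCL17 and CCL22 are well known in human atopic dermatitis.

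Several of the genes are neighbours. On chromosome 11 (GRCm38) Ccl11 (chr11:82057823-82062955, plus strand) is followed by Ccl8 (chr11:82115185-82116799, plus strand) after 52.2 kb and by Ccl1 (chr11:82176657-82305690, minus strand) after a further 59.9 kb. On chromosome 8 Ccl22 (chr8:94745590-94751699, plus strand) and Ccl17 (chr8:94810453-94812036, plus strand) lie 58.8 kb apart. Ccl24 is on chromosome 5 (chr5:135569937-135573049, minus strand). The receptors are on chromosome 9, Ccr4 at chr9:114490316-114504916 (minus strand), Ccr8 at chr9:120092114-120094906 (plus strand) and Ccr3 at chr9:124021972-124031689 (plus strand).

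The RefSeq promoter windows (GRCm38.p6, 250 bases before to 50 after the start) were searched on both strands for STAT sites (TTCNNNGAA and TTCNNNNGAA), the AP-1 site TGANTCA, the NF-kB site GGGNNTTTCC and a direct repeat of the vitamin D receptor. The table held 7 of the 9 genes. Of the 32851 promoters of this length, 8.30%, 6.95%, 7.81%, 1.63% and 0.0396% held these motifs, in that order. The CCR4 ligands Ccl17 (chr8:94810203-94810502, plus strand) and Ccl22 (chr8:94745434-94745733, plus strand) are shown because they are neighbours with 1 receptor. On day 8 in uninjected mice Ccl17 rose and Ccl22 did not pass the test, but the responses of these genes were not tested against each other. Ccl8 (chr11:82114935-82115234, plus strand) is shown because it rose most often, and Ccr4 (chr9:114496495-114496794, minus strand) because it fell most often. Each is written 5′ to 3′ on the strand of the gene, and capitals mark a motif match.
Ccl17: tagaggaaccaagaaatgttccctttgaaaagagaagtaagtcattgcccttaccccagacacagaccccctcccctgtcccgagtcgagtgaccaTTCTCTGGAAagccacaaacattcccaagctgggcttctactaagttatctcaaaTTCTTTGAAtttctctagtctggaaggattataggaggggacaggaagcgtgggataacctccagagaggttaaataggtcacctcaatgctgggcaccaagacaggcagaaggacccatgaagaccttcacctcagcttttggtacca
Ccl22: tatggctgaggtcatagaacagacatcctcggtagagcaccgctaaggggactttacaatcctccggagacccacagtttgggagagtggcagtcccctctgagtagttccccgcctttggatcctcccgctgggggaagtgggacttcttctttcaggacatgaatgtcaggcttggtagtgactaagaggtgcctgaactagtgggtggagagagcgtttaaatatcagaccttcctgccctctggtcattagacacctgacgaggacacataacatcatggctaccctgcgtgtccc
Ccl8: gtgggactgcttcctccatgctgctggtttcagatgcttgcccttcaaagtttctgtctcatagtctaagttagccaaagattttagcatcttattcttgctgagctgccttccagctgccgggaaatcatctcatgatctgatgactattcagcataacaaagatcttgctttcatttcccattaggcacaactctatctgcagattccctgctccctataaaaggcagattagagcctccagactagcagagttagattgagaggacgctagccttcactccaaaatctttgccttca
Ccr4: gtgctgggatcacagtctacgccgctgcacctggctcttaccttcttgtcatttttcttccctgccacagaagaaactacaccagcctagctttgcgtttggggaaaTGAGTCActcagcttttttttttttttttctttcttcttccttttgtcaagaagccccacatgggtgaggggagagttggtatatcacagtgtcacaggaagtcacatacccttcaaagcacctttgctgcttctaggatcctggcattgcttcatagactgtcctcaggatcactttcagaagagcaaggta
The Ccl17 window held both STAT letters, TTCTTTGAA beginning 99 bases before the start and TTCTCTGGAA beginning 154 bases before it. Ccr4 held TGAGTCA beginning 143 bases before the start. Ccr3, not printed, held TGAGTCA and GGAAATTCCC, the NF-kB letters on the other strand. The windows of Ccl22, Ccl8, Ccl1 and Ccr8 held none of these letters, and no window of the 7 held the vitamin D receptor repeat.

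Ccl8 and Ccl11 were the most abundant of the 9 and Ccl1, Ccr8 and Ccl17 were near the limit of detection. Levels were compared between genes as cpm per kilobase of exon. In the 30 ethanol libraries the median was 45.1 for Ccl8, 20.7 for Ccl11, 5.05 for Ccl24, 3.21 for Ccl22 and 2.38 for Ccr4. Ccr3 had a median of 0.405, Ccl17 of 0.301, Ccr8 of 0.176 and Ccl1 of 0.0616 cpm per kilobase. Over libraries the ranges of neighbours in this order overlapped, except those of Ccr4 and Ccr3, which did not. In the 31 MC903 libraries the order was the same except that Ccl17 (0.806) stood above Ccr4 (0.612) and Ccr3 (0.351), and the ranges of all neighbours overlapped.

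**Figure D1:**
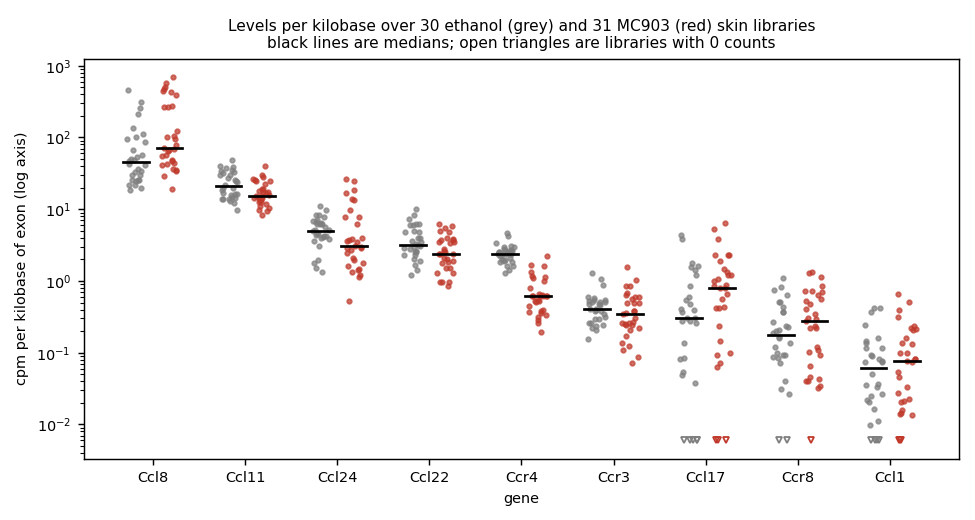
Levels of the 9 genes in cpm per kilobase of exon on a log axis, 1 point per skin library, for ethanol (grey, 30 libraries) and MC903 (red, 31 libraries). Black lines are medians and open triangles are libraries with 0 counts. Ccl8 and Ccl11 had the highest medians in both treatments, and Ccr4 was lower in rank with MC903 than with ethanol.

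A library with 3 counts or fewer was taken as at the floor of detection. Ccl17 was at the floor in 13 ethanol and 9 MC903 libraries, Ccl1 in 14 and 13, and Ccr8 in 10 and 12, and the other 6 genes were above it in all 61.

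The effect of MC903 was tested within each day, genotype and injection, and genes with an adjusted p under 0.05 over all genes tested are said to have risen or fallen. On day 1, 0 of the 9 genes rose and 1 fell, where 13% of all genes tested changed, 5.51% up and 7.47% down. Day 2 had 0 calls among the 9, and 0% of all 24580 genes tested passed, although 1190 had an unadjusted p under 0.05. On day 5, 0 rose and 2 fell, where 14.9% of all genes changed (8.15% up, 6.78% down). On day 8 in uninjected wild-type mice, 3 rose and 1 fell, where 23.4% changed (12.2% up, 11.2% down). After PBS injection 1 rose and 1 fell, where 3.99% changed (3.26% up, 0.721% down). After aGr1 1 rose and 3 fell, where 32.6% changed (15.1% up, 17.5% down). TSLPR KO mice had 0 rises and 1 fall on day 8, where 2.45% changed (1.31% up, 1.14% down), and 0 rises and 4 falls on day 12, where 10% changed (5.41% up, 4.62% down). Among libraries labelled BLT1 KO 1 rose and 3 fell, where 28.6% changed (14.1% up, 14.6% down).
The median log2 fold change of the 9 genes was below 0 on day 1 (−0.59), on day 5 (−1.35) and in TSLPR KO mice (−0.80 on day 8 and −1.14 on day 12), and above 0 on day 8 in uninjected (0.86) and PBS-injected wild-type mice (1.0). It was 0.47 on day 2, −0.26 after aGr1 and 0.59 in libraries labelled BLT1 KO. Over all genes tested the median lay between −0.04 and 0.09 in every comparison.

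**Figure D2:**
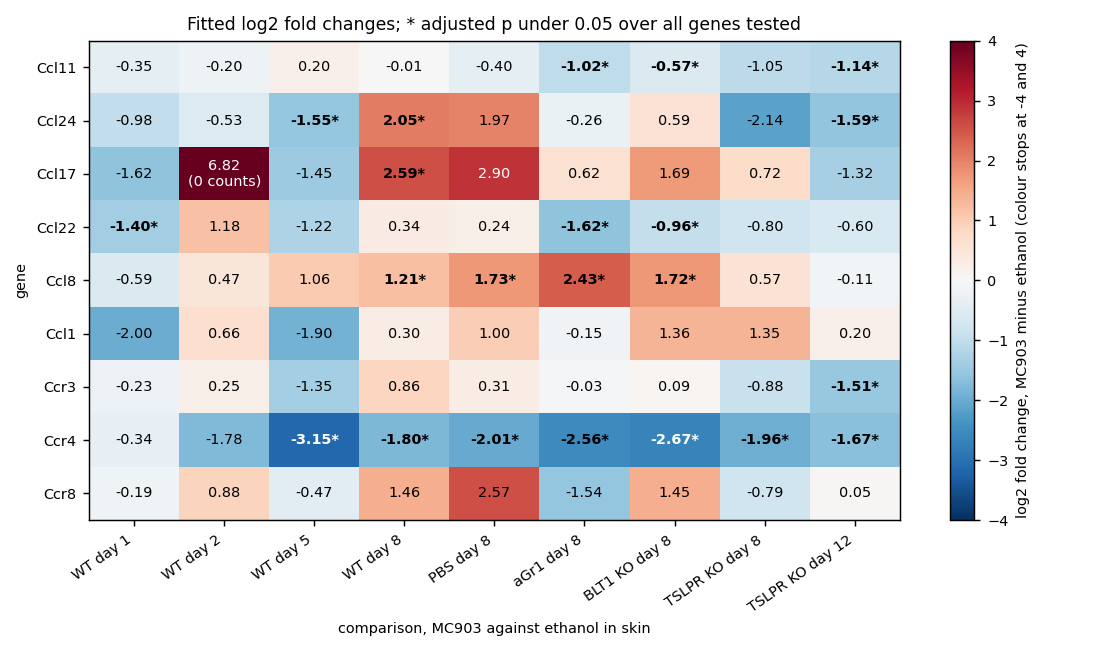
Log2 fold change of MC903 over ethanol for the 9 genes (rows) in the 9 skin comparisons (columns), as numbers and as colour that stops at −4 and 4, with an asterisk at an adjusted p under 0.05. Ccr4 lay below 0 in each comparison, Ccl8 rose on day 8 in wild-type groups and in libraries labelled BLT1 KO, and Ccl24 lay on opposite sides of 0 on days 5 and 8.

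Among the eotaxins, Ccl24, made by macrophages among other cells, was lower with MC903 on day 5 and higher on day 8. On day 5 it was at 12.7, 10.9 and 8.10 cpm in the ethanol libraries and at 3.80, 2.34 and 4.67 cpm in the MC903 libraries. The groups did not overlap, and the log2 fold change was −1.55 ± 0.32 (SE, adjusted p = 0.0166, edgeR's quasi-likelihood test with Benjamini-Hochberg adjustment, as for every adjusted p below). The call was lost without ethanol replicate 1 or 2 or without MC903 replicate 1 (adjusted p from 0.0533 to 0.0584). In bulk tissue such as this, fewer cells of a type and less RNA per cell cannot be told apart.
On day 8 the lowest of the 6 ethanol libraries had 1.74 cpm of Ccl24, the median was 4.52 and the highest 5.79. The MC903 libraries had 17.3, 3.71 and 34.7 cpm in cohort A and 7.96 and 17.9 in cohort B, so that 4 of 5 lay above all ethanol libraries. Ccl24 rose by a log2 fold change of 2.05 ± 0.51 (adjusted p = 0.0111), with 2.53 in cohort A alone (adjusted p = 0.0566) and 1.41 in cohort B alone (adjusted p = 0.0255). The change on day 8 exceeded that on day 5 by 3.61 ± 0.79 on the log2 scale (adjusted p = 0.0343, where 1.62% of all genes passed the test of this difference, 0.706% higher and 0.916% lower). That call was lost when any of 10 of the 17 libraries was left out, with a difference of 3.36 to 3.79 and an adjusted p of at most 0.0871. These were the 3 day 5 MC903 libraries, day 5 ethanol replicates 1 and 2, MC903 replicate 1a and ethanol replicates 2 and 3b of cohort A, and MC903 replicate 2 and ethanol replicate 2 of cohort B.

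Ccl24 had 5.99, 5.24, 7.99 and 6.52 cpm with ethanol on day 1 and 3.95, 2.06, 1.89 and 5.21 with MC903 (log2 fold change −0.98 ± 0.30, adjusted p = 0.0606), and all 4 MC903 libraries lay below the ethanol libraries. Without MC903 replicate 4 the adjusted p was 0.0285. With PBS injection on day 8 the ethanol libraries had 4.62, 9.13 and 2.51 cpm and the MC903 libraries 10.2 and 31.6 (1.97 ± 0.63, adjusted p = 0.168), and without ethanol replicate 2 the change was 2.56 (adjusted p = 0.0341). With aGr1 the same gene had 8.18, 6.55, 6.56 and 5.65 cpm against 4.88, 1.87, 12.7 and 3.49 (−0.26, adjusted p = 0.730), and the groups overlapped.
Ccl24 was low with MC903 in TSLPR KO mice. On day 8 the ethanol libraries had 9.0 and 2.32 cpm and the MC903 libraries 1.74, 1.55 and 0.673 (−2.14 ± 0.57, adjusted p = 0.103). Without ethanol replicate 2, which has the lower value, the change was −2.81 (adjusted p = 0.0141). On day 12 they had 8.57, 8.30 and 4.95 against 1.48, 2.54, 3.15 and 2.67 cpm, and Ccl24 fell by a log2 fold change of −1.59 ± 0.30 (adjusted p = 0.0125, 0.0568 without ethanol replicate 1). The day 8 change differed from that of uninjected wild-type mice by −4.15 ± 0.93, with an adjusted p of 0.0939 where 0.177% of all genes passed (0.0111% higher, 0.166% lower). It passed without that replicate (adjusted p = 0.0455) or without cohort A MC903 replicate 2 (adjusted p = 0.0358). Libraries labelled BLT1 KO had Ccl24 at 14.5, 10.6 and 10.2 cpm against 23.7, 10.003 and 21.7 (0.59 ± 0.31, adjusted p = 0.194), and without MC903 replicate 2 the change was 0.91 (adjusted p = 0.0152).

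Ccl11, made by fibroblasts and other tissue cells, rose in none of the 9 comparisons and fell in 3. After aGr1 it had 23.4, 29.7, 28 and 25.8 cpm with ethanol and 10.7, 13.6, 13.6 and 15.5 cpm with MC903 (a log2 fold change of −1.02 ± 0.14, adjusted p = 9.08e-04). The values of TSLPR KO mice on day 12 were 51.9, 43.6 and 38.3 against 18.7, 18.3, 26.4 and 19 cpm (−1.14 ± 0.18, adjusted p = 0.00556). In libraries labelled BLT1 KO they were 35.4, 32 and 40.9 against 28.7, 20.6 and 26.9 cpm (−0.57 ± 0.16, adjusted p = 0.03). The groups of these 3 comparisons did not overlap. The last call was lost without ethanol replicate 1 or 3 or MC903 replicate 2 or 3 (adjusted p from 0.0616 to 0.0992).
On day 8 TSLPR KO mice had Ccl11 at 36.7 and 21.5 cpm with ethanol and 12.7, 14.5 and 16 with MC903 (−1.05 ± 0.27, adjusted p = 0.0858), and it passed without ethanol replicate 2 (−1.40, adjusted p = 0.0206). In uninjected wild-type mice on day 8 its range was 10.6 to 20.3 cpm in 6 ethanol libraries and 11.2 to 27.7 cpm in 5 MC903 libraries (−0.01 ± 0.23, adjusted p = 0.988). The MC903 effect after aGr1 differed from that in uninjected mice by −1.0 ± 0.31 on the log2 scale (adjusted p = 0.0695, where 4.56% of all genes passed, 1.2% higher and 3.36% lower) and from that after PBS by −0.57 ± 0.39 (adjusted p = 0.651, where 0.232% passed, 0.00374% higher and 0.228% lower). The first of these passed without MC903 replicate 1 (adjusted p = 0.0445) or ethanol replicate 3 (adjusted p = 0.0460) of cohort B. The uninjected wild-type day 8 libraries served in all tests of differences from uninjected mice and in that from day 5.

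**Figure D3:**
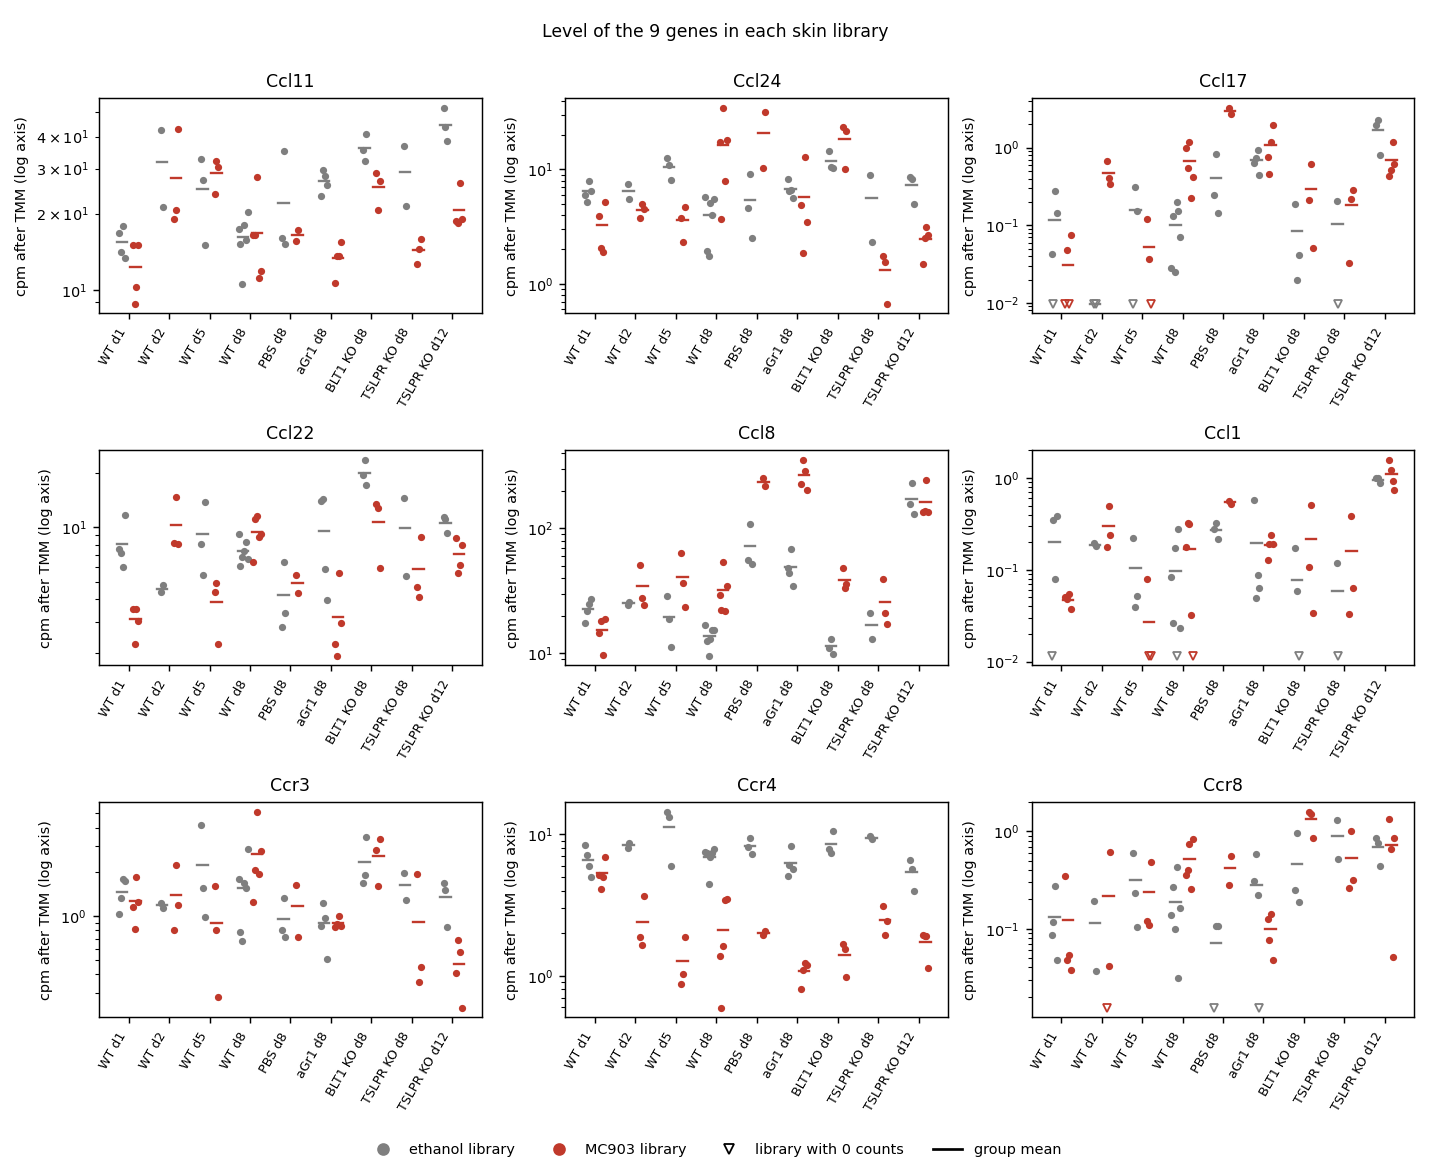
Levels of the 9 genes in cpm on log axes, 1 point per library with a line at the group mean and open triangles for 0 counts, for ethanol (grey) and MC903 (red) in each of the 9 skin comparisons. From day 2 on every MC903 library lay below the ethanol libraries of its comparison in Ccr4, and Ccl8 was highest in the injected mice and in TSLPR KO mice on day 12.

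Among the CCR4 ligands, Ccl17, made by dendritic cells and keratinocytes, was at the edge of detection and higher with MC903 on day 8. The 6 ethanol libraries held 1, 1 and 5 counts in cohort A and 3, 5 and 7 in cohort B, and the MC903 libraries 20, 33 and 45 counts in cohort A and 7 and 14 in cohort B. These came to 0.0249 to 0.201 cpm and 0.226 to 1.19 cpm, and the groups did not overlap in cpm. Ccl17 rose by a log2 fold change of 2.59 ± 0.62 (adjusted p = 0.00960). In cohort A alone it was 3.77 (adjusted p = 0.00708) and in cohort B alone 1.16 (adjusted p = 0.565).
After PBS injection Ccl17 had 0.248, 0.827 and 0.143 cpm with ethanol and 3.26 and 2.74 with MC903 (log2 fold change 2.90 ± 0.63, adjusted p = 0.0620), and the groups did not overlap. Without PBS ethanol replicate 2 it was 3.90 (adjusted p = 0.00233). On day 2 both ethanol libraries had 0 counts and the MC903 libraries had 23, 10 and 10, and the change did not pass (adjusted p = 0.5997). The mean MC903 level of Ccl17 was 4.61-fold the level that 3 counts would give in the ethanol libraries. The 23 counts were in the day 2 library with the high sensory neuron sum. For TSLPR KO mice of day 12 the ethanol libraries had 64, 86 and 24 counts and the MC903 libraries 17, 23, 46 and 21 (−1.32 ± 0.46, adjusted p = 0.102). The change passed without MC903 replicate 3 (−1.72, adjusted p = 0.0349) or ethanol replicate 3 (−1.63, adjusted p = 0.0467).

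Ccl22, made by macrophages and dendritic cells, fell on day 1 and did not pass the test on day 8 in uninjected mice. On day 1 it had 7.53, 7.18, 5.98 and 11.6 cpm with ethanol and 3.55, 2.26, 3.51 and 3.04 with MC903 (log2 fold change −1.40 ± 0.23, adjusted p = 0.00558). None of the other 8 genes passed that day, and the groups did not overlap. On day 2 the order was opposite, at 4.35 and 4.78 cpm with ethanol and 8.18, 14.6 and 8.08 with MC903 (1.18 ± 0.44, adjusted p = 0.898). On day 5 it had 8.07, 5.41 and 13.8 against 4.40, 4.94 and 2.26 cpm (−1.22 ± 0.40, adjusted p = 0.0812).
On day 8 the 6 ethanol libraries ranged from 6.10 to 9.10 cpm with a median of 7.10 and the MC903 libraries had 6.42, 11.1, 11.5, 8.77 and 9.12 (0.34 ± 0.17, adjusted p = 0.184). With the BLT1 KO label Ccl22 had 19.4, 23.5 and 17 cpm with ethanol and 13.4, 12.8 and 5.93 with MC903, and it fell by −0.96 ± 0.30 (adjusted p = 0.0414). The call was lost without ethanol replicate 1 or 2 or MC903 replicate 2 (adjusted p from 0.0581 to 0.143). The difference from uninjected wild-type mice was −1.24 ± 0.34 (adjusted p = 0.0361, where 6.95% of all genes passed, 4.35% higher and 2.6% lower). It was −1.35 against cohort A alone (adjusted p = 0.0885) and −1.15 against cohort B alone (adjusted p = 0.153). It was also lost without any of 8 of the 17 libraries, with an adjusted p of 0.0514 to 0.0908. These were ethanol replicates 1 and 2 and MC903 replicate 3 labelled BLT1 KO, MC903 replicates 1b and 2 and ethanol replicates 2 and 3b of cohort A, and MC903 replicate 2 of cohort B.

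After aGr1 Ccl22 had 14, 14.3, 5.85 and 3.93 cpm with ethanol and 2.25, 1.95, 5.59 and 2.96 with MC903, and it fell by −1.62 ± 0.49 (adjusted p = 0.0320). The groups overlapped, and the ethanol libraries with the highest values were replicates 1 and 2, those with the high B cell sums. Without both, which was added after the data were seen, the change was −0.63 (adjusted p = 0.328). Leaving out replicate 1 or 2 of the ethanol group, or MC903 replicate 1, 2 or 4, also ended the call (adjusted p from 0.0787 to 0.0950). The difference from the effect after PBS was −1.81 ± 0.74 and did not pass (adjusted p = 0.4135, where 0.232% of all genes passed). The difference from uninjected mice was −1.94 ± 0.49 (adjusted p = 0.0291, where 4.56% passed), and −0.95 without both libraries (adjusted p = 0.348). It was lost without aGr1 MC903 replicate 1, 2 or 4, aGr1 ethanol replicate 1 or 2, or cohort A MC903 replicate 1b or ethanol replicate 3b (adjusted p from 0.0501 to 0.0810). Within cohorts it was −1.97 for A (adjusted p = 0.104) and −1.88 for B (adjusted p = 0.150). The part of the B cell genes in these results was not tested beyond leaving out the libraries.

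Ccl8, a CCR8 ligand made by macrophages and dermal cells, was the gene that rose most often, in 4 of the 9 comparisons, and fell in none. On day 8 in uninjected wild-type mice the 6 ethanol libraries ranged from 9.59 to 16.8 cpm with a median of 14.1. The MC903 libraries had 29.1, 22.4, 53.8, 22 and 34.4 cpm, all above the ethanol group (log2 fold change 1.21 ± 0.23, adjusted p = 0.00223). The rise held in both cohorts, at 1.41 in A (adjusted p = 0.0248) and 0.95 in B (adjusted p = 0.0221).
After aGr1 Ccl8 had 48.2, 44.2, 68.5 and 34.4 cpm with ethanol and 225, 355, 290 and 203 with MC903 (2.43 ± 0.25, adjusted p = 1.51e-04). After PBS it had 56.3, 108 and 52 against 254 and 217 cpm (1.73 ± 0.35, adjusted p = 0.0489). The groups did not overlap after either injection. The PBS call was lost without either MC903 library or without ethanol replicate 1 or 3 (adjusted p from 0.121 to 0.265). In libraries labelled BLT1 KO the values were 11, 13.1 and 9.96 against 47.9, 33.4 and 35.8 cpm (1.72 ± 0.18, adjusted p = 1.82e-04).
The MC903 effect on Ccl8 after aGr1 exceeded that in uninjected mice by 1.24 ± 0.35 on the log2 scale, with an adjusted p of 0.0510, and that after PBS by 0.75 ± 0.44 (adjusted p = 0.594). The first difference passed without cohort A MC903 replicate 1b (adjusted p = 0.0139) or ethanol replicate 3b (adjusted p = 0.0433), or without aGr1 ethanol replicate 3 (adjusted p = 0.0168). Ccl8 did not pass in TSLPR KO mice. On day 8 these had 21 and 12.9 cpm with ethanol and 39.7, 21.1 and 17.1 with MC903 (0.57 ± 0.37, adjusted p = 0.521). On day 12 they had 157, 232 and 130 against 135, 139, 244 and 135 cpm (−0.11 ± 0.28, adjusted p = 0.847). The day 8 effect differed from that of wild-type mice by −0.61 ± 0.46 (adjusted p = 0.617), so that no difference between the genotypes was shown.

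Before day 8 Ccl8 passed in no comparison. It had 17.5, 21.8, 25 and 27.1 cpm with ethanol and 14.7, 18.1, 9.73 and 18.7 with MC903 on day 1 (−0.59 ± 0.20, adjusted p = 0.0813), and it passed without ethanol replicate 1 (adjusted p = 0.0365). On day 5 it had 28.8, 18.7 and 11.3 against 63.6, 36.3 and 23.7 cpm (1.06 ± 0.43, adjusted p = 0.141). Ethanol levels of Ccl8 were 9.59 to 28.8 cpm in uninjected mice up to day 8 and 34.4 cpm or more in injected mice and in TSLPR KO mice on day 12, a difference between groups of other injection, genotype or day that was not tested.
Ccl1, the other CCR8 ligand, passed in none of the comparisons, with log2 fold changes from −2.0 to 1.36, although on day 1 it was past the threshold without ethanol replicate 1 (−2.40, adjusted p = 0.0415). Its counts were 0 to 14 per library outside the TSLPR KO mice of day 12 and the BLT1 KO label, where they reached 62 and 24. In TSLPR KO mice on day 12 it had 32, 38 and 26 counts with ethanol and 62, 55, 36 and 25 with MC903, and the groups overlapped.

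Ccr4, the receptor of CCL17 and CCL22, fell in 7 of the 9 comparisons, which were all 7 from day 5 on, and its log2 fold change was below 0 in all 9. On day 1 the groups overlapped, at 8.34, 7.18, 5.94 and 4.99 cpm with ethanol and 5.14, 4.08, 4.97 and 6.93 with MC903 (−0.34 ± 0.21, adjusted p = 0.30). On day 2 they did not overlap, at 8.01 and 8.64 against 1.89, 1.64 and 3.67 cpm (−1.78 ± 0.49, adjusted p = 0.752).
On day 5 Ccr4 had 14.4, 13.2 and 5.98 cpm with ethanol and 0.880, 1.02 and 1.89 with MC903 (−3.15 ± 0.45, adjusted p = 0.00416). On day 8 the 6 ethanol libraries ranged from 4.45 to 7.87 cpm with a median of 7.35, and the MC903 libraries had 1.37, 0.595, 1.63, 3.43 and 3.46 (−1.80 ± 0.31, adjusted p = 0.00108). All MC903 libraries of both days lay below the ethanol libraries. Within day 8 the change was −2.45 in cohort A (adjusted p = 0.00470) and −1.10 in cohort B (adjusted p = 0.0151).
After injection of PBS Ccr4 had 8.09, 9.35 and 7.24 cpm with ethanol and 1.96 and 2.07 with MC903 (−2.01 ± 0.25, adjusted p = 0.0114). This call was lost without either MC903 library or without ethanol replicate 1 (adjusted p from 0.103 to 0.121). After aGr1 it had 5.05, 6.10, 8.32 and 5.71 against 0.806, 1.11, 1.23 and 1.20 cpm (−2.56 ± 0.22, adjusted p = 6.51e-05). The fall held without any 1 aGr1 library.
With the BLT1 KO label Ccr4 had 7.89, 7.33 and 10.5 cpm with ethanol and 1.68, 1.55 and 0.983 with MC903 (−2.67 ± 0.29, adjusted p = 2.29e-04). TSLPR KO mice had 9.64 and 9.30 against 3.12, 1.94 and 2.44 cpm on day 8 (−1.96 ± 0.29, adjusted p = 0.00861). On day 12 it had 6.56, 5.66 and 3.94 against 1.94, 1.90, 1.92 and 1.13 cpm (−1.67 ± 0.28, adjusted p = 0.00689). The 3 sets of libraries each showed non-overlapping groups.
No difference in the fall of Ccr4 between conditions passed with both cohorts in the fit. It differed from uninjected wild-type day 8 by −0.13 ± 0.49 in TSLPR KO mice (adjusted p = 0.953), by −0.81 ± 0.46 in libraries labelled BLT1 KO (adjusted p = 0.327) and by −0.73 ± 0.42 after aGr1 (adjusted p = 0.347). Against cohort B alone the differences for aGr1 (−1.46, adjusted p = 0.0374) and for the BLT1 KO label (−1.49, adjusted p = 0.0311) passed. Against cohort A alone they were −0.10 (adjusted p = 0.941) and −0.23 (adjusted p = 0.845). The day 8 change was 1.35 ± 0.54 above that on day 5 (adjusted p = 0.228).

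Ccr3, the eosinophil receptor, passed in 1 comparison. In TSLPR KO mice on day 12 it had 1.67, 1.51 and 0.842 cpm with ethanol and 0.408, 0.684, 0.564 and 0.237 with MC903 (−1.51 ± 0.41, adjusted p = 0.0487), without overlap. The call was lost when any library except ethanol replicate 3 was left out (adjusted p from 0.0524 to 0.161). On day 8 in uninjected wild-type mice it ranged from 0.671 to 2.88 cpm with ethanol and from 1.25 to 5.11 with MC903 (0.86 ± 0.41, adjusted p = 0.153).
Ccr8, the receptor of CCL1 and CCL8, passed in no comparison, with log2 fold changes from −1.54 to 2.57. It was past the threshold without cohort B ethanol replicate 1 on day 8 (1.86, adjusted p = 0.0303), without aGr1 ethanol replicate 4 (−1.90, adjusted p = 0.0371) and without ethanol replicate 2 of the BLT1 KO label (2.57, adjusted p = 0.0130). After PBS the ethanol libraries had 0, 3 and 3 counts of Ccr8 and the MC903 libraries 6 and 15. The mean MC903 level of Ccr8 was 4.10-fold the level that 3 counts would give in these ethanol libraries. After aGr1 it had 7, 12, 5 and 0 counts with ethanol and 3, 2, 3 and 1 with MC903, and the difference between the effects after aGr1 and after PBS was −4.05 ± 1.28 (adjusted p = 0.274). In libraries labelled BLT1 KO it had 17, 49 and 9 counts against 89, 72 and 51.

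Among other genes of the chemokine system, Ccl3, Ccl4 and Ccr1 rose and Ccl27a fell on day 8. Of 14 other CC ligands, 8 rose and 1 fell on day 8 in uninjected wild-type mice, with a median log2 fold change of 1.77. Ccl3 (7.28 ± 0.63, adjusted p = 4.85e-06) and Ccl4 (7.10 ± 0.65, adjusted p = 7.51e-06), which recruit monocytes and other leukocytes, had the smallest p-values. Ccl27a, a keratinocyte chemokine for skin-homing T cells, fell on day 8 (−1.32 ± 0.15, adjusted p = 4.11e-05) and also on day 1, on day 5, after aGr1 and in TSLPR KO mice on both days. Of 11 other CC and atypical receptors, 4 rose and 1 fell on day 8, with Ccr1, a receptor of monocytes and neutrophils, at 3.27 ± 0.33 (adjusted p = 1.77e-05). In TSLPR KO mice on day 8, 0 of the 14 ligands rose and 1 fell, where 1.31% of all genes rose and 1.14% fell, against 12.2% and 11.2% on day 8 in uninjected wild-type mice.
Of 17 genes of the type 2 cytokine axis, 6 rose on day 5 and 12 on day 8 in uninjected wild-type mice, and 0 fell on either day. Of all genes, 8.15% rose and 6.78% fell on day 5, and 12.2% rose and 11.2% fell on day 8. Tslp, the cytokine sensed by the deleted receptor, rose on day 5 (6.67 ± 0.38, adjusted p = 7.71e-05), and Il4ra, the shared receptor chain of IL-4 and IL-13, on day 8 (2.36 ± 0.20, adjusted p = 3.92e-06). Of the 17 in TSLPR KO mice, 1 rose and 0 fell on day 8, and 6 rose and 1 fell on day 12. Of all genes, 2.45% changed in TSLPR KO mice on day 8 and 10% on day 12, against 23.4% on day 8 in uninjected wild-type mice. In the test of the day 8 difference from uninjected wild-type mice, 1 of the 17 passed, where 0.177% of all genes did.

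Marker lists of the cells that carry the receptors or make the ligands moved with some of the results and against others. For eosinophils, 9 genes were listed, of which 3 rose and 2 fell on day 8, and 0 rose and 2 fell on day 5. Of all genes, 12.2% rose and 11.2% fell on day 8, and 8.15% rose and 6.78% fell on day 5. The defining granule genes were near 0, with Epx at 0 counts in 52 of 61 libraries and Prg2 and Prg3 each at 3 counts or fewer in 38. Ear2, also made by other myeloid cells, gave a median 52.3% of the summed level. The sum was 28.5 to 37.4 cpm with ethanol and 6.62 to 9.27 with MC903 on day 5, and 14.6 to 30.5 against 10.4 to 22.5 cpm on day 8. By flow cytometry, the paper reports raised eosinophil counts in treated skin on the later of these days, with no significant change on the earlier. The marker sum showed no such rise, so it is not a count of eosinophils. On day 12 in TSLPR KO mice the sum was 37.9 to 64.8 against 11.3 to 19.9 cpm. The part of eosinophil number in the levels of Ccl24 and Ccr3 was not tested.
Of 10 T helper genes, 6 rose and 3 fell on day 8 in uninjected wild-type mice (median log2 fold change 2.04). Of all genes, 12.2% rose and 11.2% fell. Ccr4 fell in the same libraries. Gata3, which keratinocytes also make, gave a median 80.3% of the list's sum. Without Gata3 the sum was 12.2 to 20.6 cpm with ethanol and 19.3 to 42.6 with MC903 on day 8, and 20.2 to 26.6 against 12.5 to 16.8 cpm on day 5. In libraries labelled BLT1 KO it was 30.5 to 36.2 against 39.5 to 52.1 cpm. After aGr1 it was 15.4 to 81.4 against 13.5 to 22.8 cpm. The part of T helper cell number in the level of Ccr4 was not tested.
Of 11 macrophage genes, 7 rose and 0 fell on day 8, 8 rose and 0 fell after aGr1, 5 rose and 0 fell in libraries labelled BLT1 KO, and 1 rose and 0 fell after PBS, the 4 comparisons in which Ccl8 rose. Of all genes, 12.2%, 15.1%, 14.1% and 3.26% rose in these comparisons, in that order. In TSLPR KO mice 0 rose on either day and 1 fell on day 12, where 1.31% of all genes rose on day 8 and 5.41% on day 12. The summed level was 523 to 932 cpm with ethanol and 750 to 1885 with MC903 on day 8, 738 to 912 against 1387 to 2485 after aGr1, 329 to 699 against 1014 to 1242 after PBS, and 824 to 1099 against 1033 to 1119 in TSLPR KO mice on day 12. The part of macrophage number in the level of Ccl8 was not tested.
On day 1, when Ccl22 fell, 9 of the 11 macrophage genes and 3 of 11 dendritic cell genes fell and none of either list rose. Of all genes, 7.47% fell and 5.51% rose that day. The macrophage sum was 656 to 966 cpm with ethanol and 478 to 599 with MC903, without overlap, and the dendritic cell sum 295 to 463 against 241 to 296 cpm. Of the dendritic cell genes, 5 fell and 0 rose after aGr1, with sums of 255 cpm or more with ethanol and 174 cpm or less with MC903. With the BLT1 KO label 5 fell and 1 rose, at 617 to 964 against 426 to 506 cpm. Of all genes, 17.5% fell and 15.1% rose after aGr1, and 14.6% fell and 14.1% rose with the BLT1 KO label. The part of macrophages and dendritic cells in the level of Ccl22 was not tested. Of 8 fibroblast genes, 4 fell and 1 rose with the BLT1 KO label (median log2 fold change −0.56), 1 fell and 1 rose after aGr1 (−0.53) and none passed in TSLPR KO mice on day 12 (−0.13), the comparisons in which Ccl11 fell. Of all genes, 14.6%, 17.5% and 4.62% fell and 14.1%, 15.1% and 5.41% rose in these comparisons, in that order. With the BLT1 KO label the sum of the fibroblast genes was 16408 to 27773 cpm with ethanol and 13468 to 17197 with MC903. The groups overlapped in all 3 comparisons. The part of fibroblast number in the level of Ccl11 was not tested. For the neutrophils that aGr1 was given to deplete, 10 genes were listed and 9 were tested after aGr1. Of these, 7 rose and 1 fell with MC903 (median log2 fold change 2.08), where 15.1% of all genes rose and 17.5% fell. In 0 of them did the MC903 effect after aGr1 differ from that after PBS or in uninjected mice. Of all genes, 0.232% passed the test against PBS and 4.56% that against uninjected mice. With shares this low, 0 in a list of this size does not measure depletion. The paper reports by flow cytometry that the antibody reduced neutrophils in blood and skin. The extent of neutrophil depletion in these libraries was not tested.

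**Figure D4:**
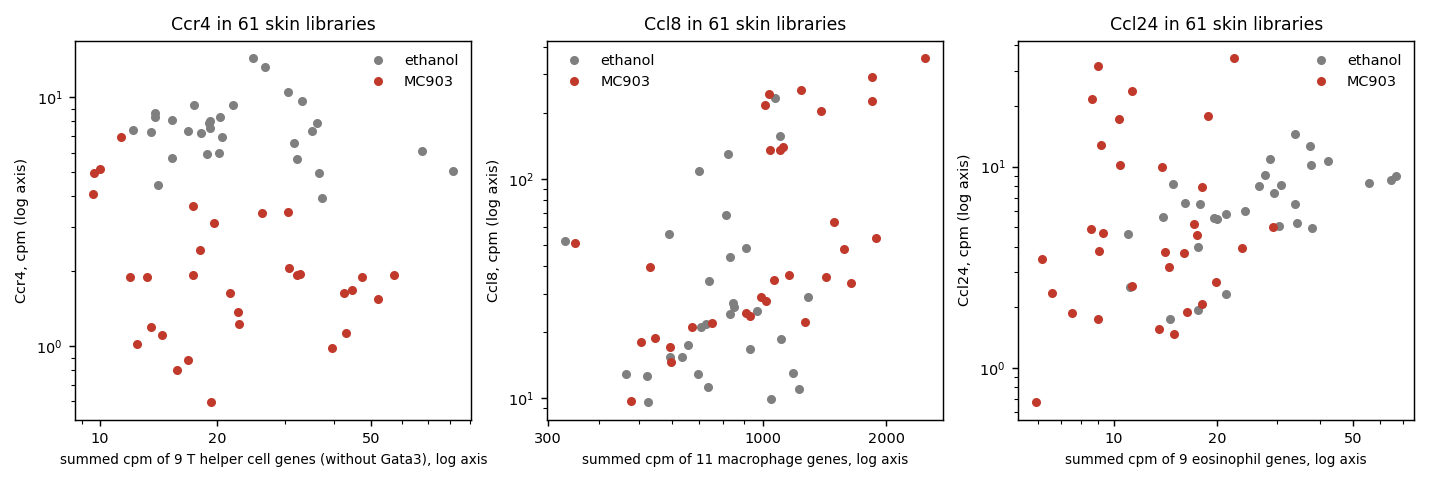
Levels in cpm of Ccr4 against T helper genes without Gata3, of Ccl8 against macrophage genes and of Ccl24 against eosinophil genes, each summed in cpm, on log axes, with 1 point per skin library (61) in grey for ethanol and red for MC903. Most MC903 libraries lay below the ethanol libraries in Ccr4 over the range of T helper sums, and the highest Ccl24 levels were not at the highest eosinophil sums.

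The genes whose levels were most like each member were taken by Pearson's r of log2(cpm + 0.5) over the 61 libraries, among 17626 genes with a mean of at least 1 cpm. Groups of these libraries share treatment, day, genotype, injection and cohort, so r is a description and can arise from differences between groups. For Ccl8 the nearest were Cd63 (r = 0.932) and Wfdc17 (r = 0.918), followed by Cd63-ps (r = 0.915), a pseudogene that shares reads with Cd63. Ccr4 was nearest to Adh6a (r = 0.934), Mrgprb11-ps (r = 0.921) and Col4a6 (r = 0.917).
Ccl24 was nearest to Slc6a14 (r = 0.819), Car8 (r = 0.785) and Cd209e (r = 0.714). For Ccl22 they were Aifm1 (r = 0.754), Fam3c (r = 0.754) and Slamf7 (r = 0.703), and for Ccl11 Efemp1 (r = 0.734), Fam3c (r = 0.713) and H2-DMa (r = 0.707). Ccr3 was nearest to Mgl2 (r = 0.693), Cblb (r = 0.670) and Ahr (r = 0.669). Ccl17, Ccl1 and Ccr8 had means under 1 cpm and were left out.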

How the data were processed

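RNA was extracted from homogenised tissue and sequenced by the authors. The deposited values were raw read counts per Ensembl gene, 1 file per library, made by the authors with TopHat2, Bowtie2 and HTSeq on mm10 per the submitters' processing notes. The annotation release and the strand setting of the counting were not given in the sources used here. The exons of the 9 genes overlapped no other gene on either strand in GENCODE M21, which named 45143 of the 46078 genes and left 935 unmatched. Reads in no gene (7.57 to 18.3% per library) and other summary lines were left out of totals and tests. Reads come from PCR libraries without molecular identifiers, so counts and the floor of 3 counts cover counting error only.

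Counts were scaled by TMM in edgeR 4.0.16 (R 4.3.3), genes with at least 10 counts in all libraries fitted were kept, and MC903 was tested against ethanol by its quasi-likelihood F test, with p-values adjusted over all genes by Benjamini and Hochberg and a threshold of 0.05, in 9 comparisons. Differences between effects were tested as interactions in 5 fits, 4 of which share the uninjected wild-type day 8 libraries. Cohort was a term where these entered. The study's own tool, DESeq, was replaced by edgeR. The fits were tested on simulated data. Alternatives were RLE scaling, DESeq2 1.42.0, filterByExpr or no filter, a replicate block, cohorts alone, joint fits and leaving out each library.

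Replicate numbers did not pair the samples by the rule used, which asked for a correlation over 0.1 in each of 3 or more pairs. No replicates were duplicates, the lowest chi-square per gene between replicates being 11.6. The genes named are the 9, the targeted genes, up to 4 genes of smallest p per list, and the 3 most alike genes for members of at least 1 cpm. The 9 genes and all lists were chosen with earlier results of these data known. Markers named for their near absence or share of a sum were chosen after their values were seen. The wild-type day 12 skin libraries were not analysed here beyond the marker check.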

Additional observations from a re-analysis of the deposited data

Results flagged for a closer look

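In 6 of 63 pairs of gene and group with 4 to 10 libraries, 1 library stood apart from the others by Dixon's criterion, which chance meets in about 1 in 20 groups. In the MC903 group of TSLPR KO mice on day 12, replicate 3 had 26.4 cpm of Ccl11 where the others had 18.3 to 19, and 244 cpm of Ccl8 where the others had 135 to 139. In the same group replicate 4 had 1.13 cpm of Ccr4 where the others had 1.90 to 1.94. Ethanol replicate 3b of cohort A on day 8 had 4.45 cpm of Ccr4 where the other 5 had 6.94 to 7.87. Ccl1 was at 0.581 cpm (13 counts) in aGr1 ethanol replicate 1 and at 0.0492 to 0.0880 cpm in the other 3. Ccr8 was at 0.350 cpm (7 counts) in day 1 MC903 replicate 1 and at 0.0375 to 0.0541 cpm in the other 3.

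Among the 9 genes in 5 tests of a difference between MC903 effects, 3 differences passed. For Ccl22 the effect was lower by −1.94 on the log2 scale after aGr1 and by −1.24 in libraries labelled BLT1 KO. Each was set against uninjected wild-type mice on day 8. For Ccl24 the effect was higher by 3.61 on day 8 than on day 5. Of all genes, 4.56%, 6.95% and 1.62% passed these tests, in that order. The calls were lost in 7 of 19, 8 of 17 and 10 of 17 fits that left out 1 library.

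In ganglion and spinal cord, 72 pairs of gene and group were searched in 1 direction only, for levels higher with MC903. In 2 of them all MC903 libraries had more than 3 counts and exceeded all ethanol libraries. Pairs with lower levels were not searched for, and the share of all genes that would meet this rule was not computed. Ccl17 in spinal cord of wild-type mice on day 8 had a mean of 0.462 cpm with MC903 (0.296 to 0.633 cpm, 9 to 23 counts, n = 4) and 0 to 0.158 cpm with ethanol (n = 5). Ccl8 in trigeminal ganglia after aGr1 had a mean of 0.434 cpm with MC903 (0.298 to 0.580 cpm, 7 to 13 counts, n = 4) and 0.143 to 0.255 cpm with ethanol (n = 4). These differences were not tested. According to the study's methods, the spinal cord came from mice painted on the rostral back with a larger volume, not on the cheek.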

How the results depend on the processing

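Most values of the 9 genes kept their direction and their side of the threshold. Over the comparisons and settings other than leaving out a library, 687 values stayed, 19 lost and 33 gained the call, and 22 changed sign with neither value past the threshold. When 1 library was left out, 1142 stayed, 54 lost, 23 gained and 62 changed sign without a call. The number of genes called moved by over 1.5 times as follows. With DESeq2 it was 3 on day 1, 4 on day 5, 4 after PBS, 3 in TSLPR KO mice on day 8, and 3, 1 and 2 for the differences of aGr1, TSLPR KO and day 5 from wild-type day 8. With RLE scaling or filterByExpr it was 1 after PBS, and with filterByExpr or no filter 2 for aGr1 against uninjected mice. With no filter it was 3 in TSLPR KO mice on day 8 and 1 for their difference from wild-type mice. In 1 fit over wild-type days it was 2 on day 2, and in 1 fit over day 8 groups 2 in libraries labelled BLT1 KO. Without the aGr1 libraries high in B cell genes it was 0 for aGr1 against uninjected mice, and with cohort A alone 0 for the BLT1 KO label against wild-type mice. Leaving out 1 library gave 1 to 3 calls on day 1, 0 to 0 on day 2, 1 to 2 on day 5, 4 to 5 on day 8, 0 to 4 after PBS, 3 to 5 after aGr1, 1 to 3 and 2 to 5 in TSLPR KO mice on days 8 and 12, and 2 to 4 for the BLT1 KO label. For the differences it gave 0 to 0 for aGr1 against PBS, 0 to 2 for aGr1, 0 to 1 for TSLPR KO and 0 to 1 for the BLT1 KO label against wild-type day 8, and 0 to 1 for day 8 against day 5. A lone library left in a group was assumed to vary like the others.

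Replicate numbers were used as a block although they did not pair the samples. With this block the number of genes called was 2 on day 2, 1 after PBS, 3 in TSLPR KO mice on day 8 and 0 in TSLPR KO mice on day 12. On day 12 Ccl11 was then at −1.11 (adjusted p = 0.0866, edgeR) and Ccr4 at −1.48 (adjusted p = 0.0785). The cause of these changes was not tested. Depth limits Ccl17, Ccl1 and Ccr8, which had 3 counts or fewer in many libraries.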
